A study of Mus musculus with 6 samples.

Results

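The 33 genes described here encode parts of the lysosome: 4 lysosomal membrane proteins, 11 cathepsins and other genes of lysosomal proteolysis, 8 glycosidases, 3 genes of lysosomal lipid breakdown, 2 transcription factors of lysosomal genes and 5 genes of the proton pump. They were chosen by gene symbol from the 24062 genes of the count tables. All 33 were counted in all 6 libraries, from 736 to 907096 raw counts, and all passed the filter on low counts. The libraries are polyA RNA-seq of mouse bone marrow cultures that the submitters call dendritic cells. Marrow cells of femur and tibia from C57BL/6J mice were grown with GM-CSF, a cytokine that drives marrow cells toward dendritic cells and macrophages, at 20 ng/ml in every culture, with feeds at days 3, 6 and 10. The groups differed in the tension under which the cells grew, 2 kPa (low tension, 3 libraries) or 50 kPa (high tension, 3 libraries). No sort or purification of the cultures is named in the labels, and whether replicates came from separate animals or wells is not said there, so p-values cover only how far these libraries vary, which may be technical variation.

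Lysosomes are acidic organelles in which proteins, glycans and lipids taken up by endocytosis or autophagy are broken down. The V-ATPase, a rotary proton pump with a membrane sector (V0) and a peripheral sector (V1), acidifies them, and the acid pH activates the cathepsins and glycosidases. In dendritic cells and macrophages the lysosomal proteases also degrade antigens and the invariant chain for presentation on MHC class II, and the factors TFEB and TFE3 bind a short E-box in the promoters of many lysosomal genes.

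Libraries held 33.8 to 36.3 M counts, and levels below are CPM, each gene's counts per M counts of its library, scaled by the TMM method. High tension replicates 1 and 2 were much closer to each other than any other pair of the same group: their chi-square over tested genes was 6.71 per degree of freedom, while the remaining same-group pairs had 126 to 233. Over the 33 lysosomal genes their median difference was 0.033 in log2 CPM, against 0.15 to 0.53 in the remaining same-group pairs. They still differed by more than sampling noise and were kept as separate libraries, and results with their counts summed into 1 library are given beside the main ones. Over the 33 genes low tension replicate 2 stood apart from replicates 1 and 3 (median differences of 0.50 and 0.53, against 0.15 between those), whereas over all tested genes replicate 3 was the farthest (213 and 233, against 156 between replicates 1 and 2). Over all tested genes low tension replicate 1 was nearer to the high tension libraries (122 to 136 per degree of freedom) than the other low tension replicates were (157 to 418). It was also nearer to every high tension library than to either other library of its own group (156 and 213). Markers of dendritic cells (summed CPM of 6266 to 12384 at 2 kPa and 15207 to 23356 at 50 kPa) and of macrophages (2771 to 4664 at 2 kPa and 5830 to 6168 at 50 kPa) were both present, and of the 14 dendritic cell markers only Xcr1 was near 0, at 0 to 6 raw counts. The 13 dendritic cell markers tested went both ways, with 8 log2 fold changes above 0 and 5 below (all tested genes, 46.8% above). Cd74, H2-Aa, H2-Ab1 and Itgax, which made up most of the sum, were higher at 50 kPa without overlap (log2 fold changes of 0.96, 1.27, 1.15 and 1.58). Flt3, Dpp4, Ccr7 and Cd24a were lower without overlap (-1.39, -1.41, -1.22 and -0.74). Neutrophil markers summed to 3840 to 7464 CPM at 2 kPa and to 853 to 1618 CPM at 50 kPa. By edgeR's quasi-likelihood test at an adjusted p under 0.05, 8 of 11 tested were lower at 50 kPa (all tested genes, 1.98%). All 8 B cell markers were also lower by that test (all tested genes, 1.98%), with summed CPM of 889 to 1435 and of 25.3 to 108. Markers of several cell types thus differed between the groups, and in such bulk samples fewer cells of a type and less RNA per cell cannot be told apart.

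In total, transcripts of the 33 genes made up a larger part of the counts at 50 kPa. Their summed level was 46669, 28008 and 45546 CPM in low tension replicates 1, 2 and 3, and 67999, 68584 and 57341 CPM in high tension replicates 1, 2 and 3. All high tension libraries were above all low tension libraries, the mean was 1.61-fold higher, and low tension replicate 2 was the lowest. As a share of all counts this was 4.97%, 3.24% and 4.22% at 2 kPa and 6.46%, 6.59% and 5.49% at 50 kPa. By class the summed CPM was 1.61-fold higher for the proteolysis genes, 1.58-fold for the glycosidases and 1.71-fold for the lipid genes, and 1.28-fold and 1.20-fold for the membrane proteins and the pump. Proteolysis and lipid genes made up most of the sum in every library, and glycosidases 4.12% to 4.84% of it.

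**Figure D1:**
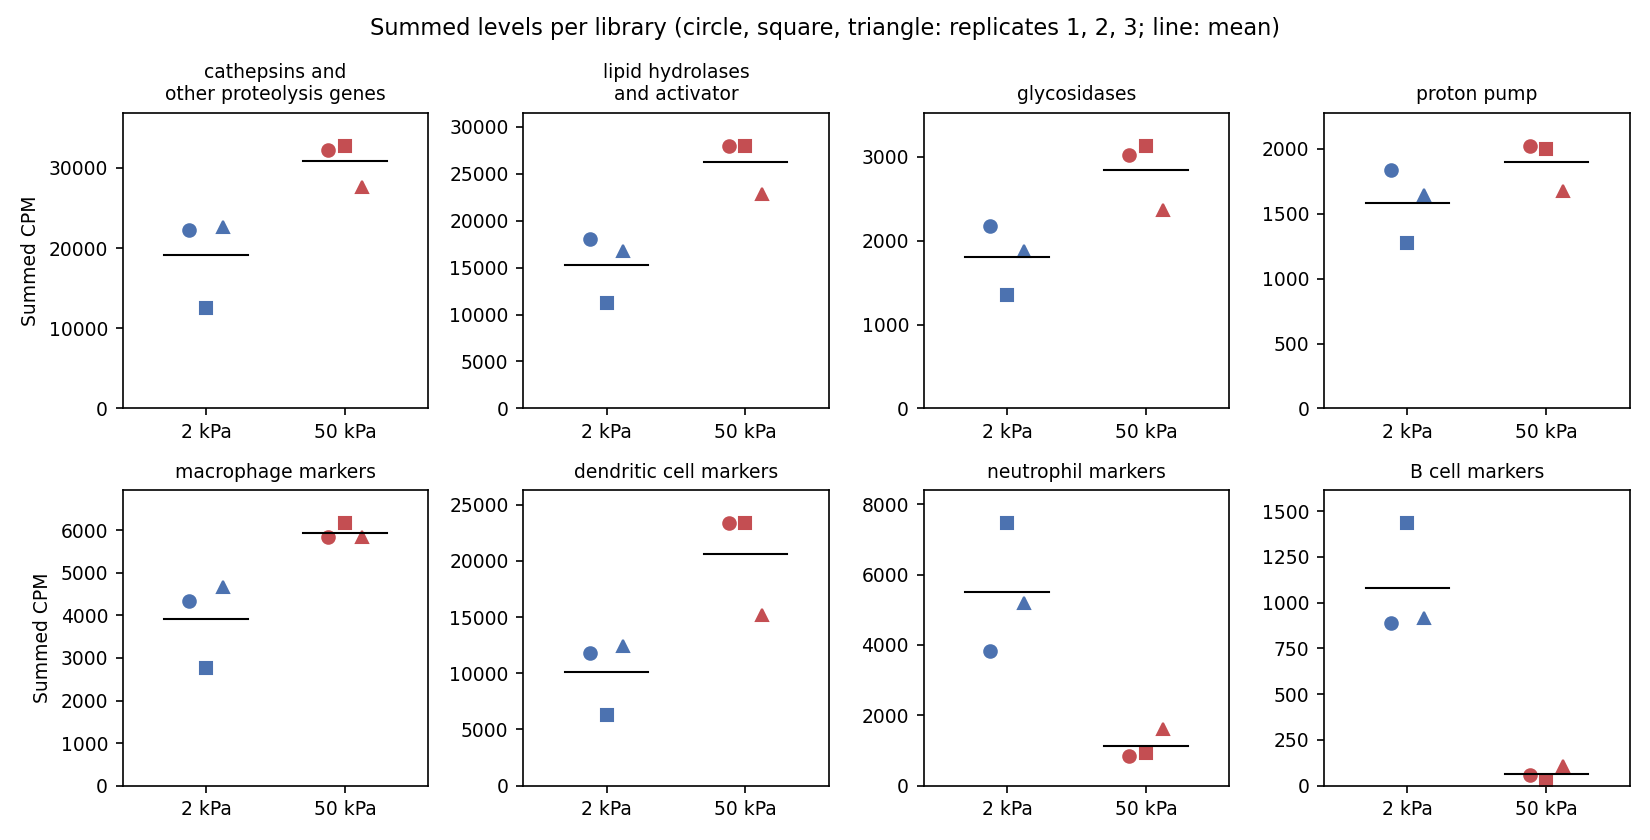
Summed CPM per library (y axis, starting at 0) for 4 lysosomal classes and 4 marker lists at 2 kPa (blue) and 50 kPa (red); each point is a library and the line is the mean of 3. The proton pump sums overlap between groups (1277 to 1835 CPM and 1678 to 2024 CPM), whereas the proteolysis sums do not (12538 to 22640.3 CPM and 27569 to 32757 CPM). Of the 13 dendritic cell markers tested, 8 had a log2 fold change above 0 and 5 below.

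Gene by gene, none of the 33 passed edgeR's quasi-likelihood test at a Benjamini-Hochberg adjusted p under 0.05 in either direction, beside 1.47% of the 13155 tested genes higher and 1.98% lower at 50 kPa. At an unadjusted p under 0.05, 14 of 33 (42.4%) were higher and 0 lower, against 13% and 14.8% of all tested genes. The log2 fold change was above 0 for 30 of 33 (90.9%; all tested genes, 46.8%), with a median of 0.38, that is 1.30-fold, beside -0.03 over all tested genes. In 18 of 33 (54.5%) every high tension library was above every low tension library, against 17.2% of tested genes, and in 0 was the reverse true, against 16.9%. By DESeq2's Wald test 8 of 33 (24.2%) were higher at an adjusted p under 0.05 and 0 lower, against 8.52% and 9.51% of tested genes. These 8 were Ctsa, Ctss, Ifi30, Tpp1, Glb1, Man2b1, Naglu and Psap. The 33 genes share the same 6 libraries, so their count is not a count of independent observations.

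**Figure D2:**
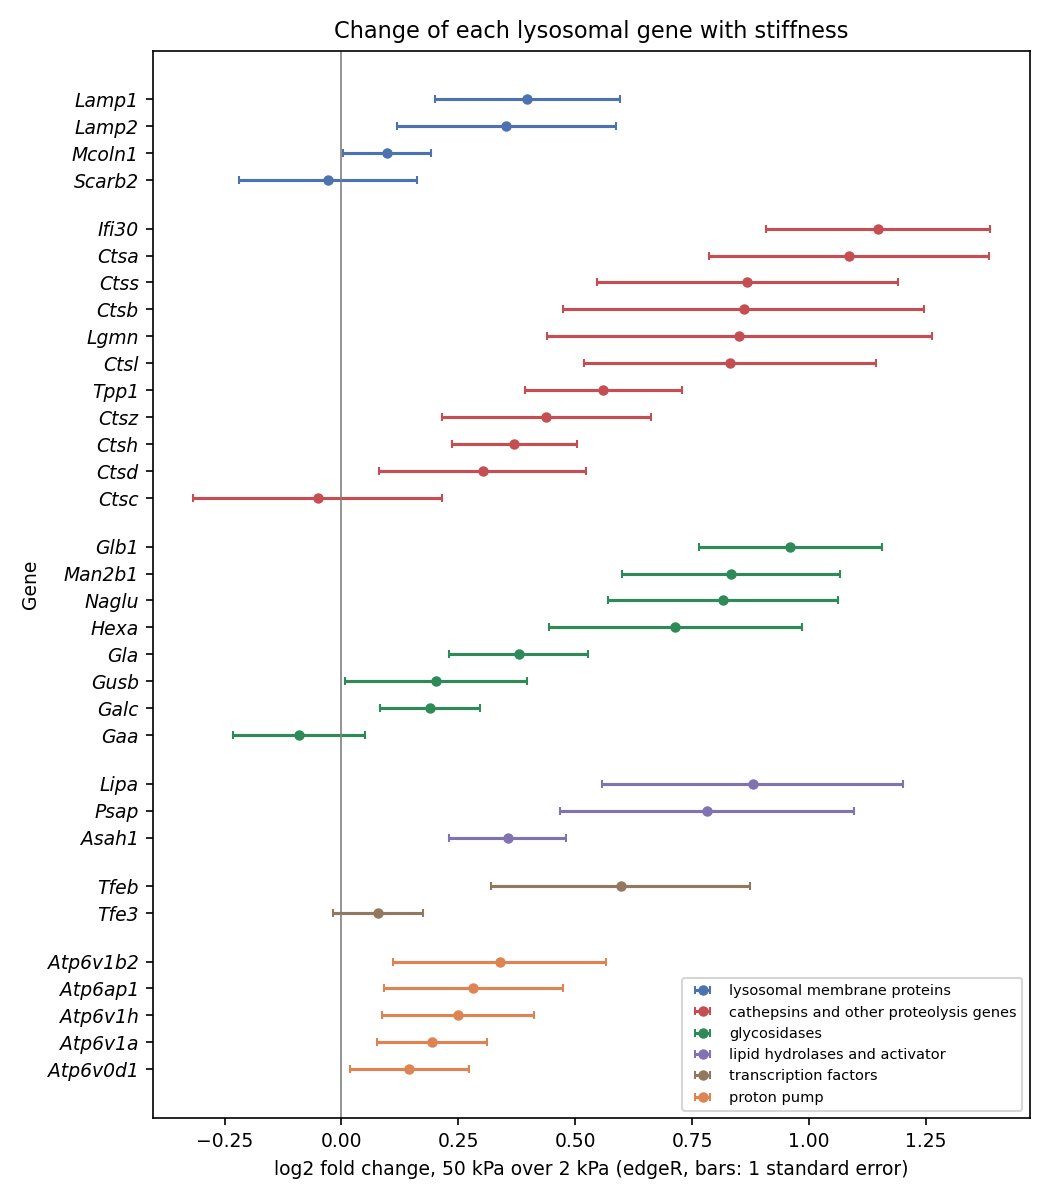
Log2 fold change of each of the 33 genes, 50 kPa over 2 kPa (x axis), with 1 standard error, coloured by class. Values run from -0.09 for Gaa to 1.15 for Ifi30, and the 5 proton pump genes lie between 0.15 and 0.34.

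E-boxes of the kind bound by TFEB and TFE3 were looked for in the promoters, since these factors are known to bind such sequences. RefSeq promoter windows (GRCm38.p6, 250 bases before to 50 after the annotated start) were present for 28 of the 33 genes, matched by symbol. The palindrome CACGTG, which reads the same on both strands, was in 13 of 28 (46.4%), beside 11.6% of the 9887 tested genes with a window and 8.09% of all 27025 genes of the table. The longer TCACGTGA, which contains it, was in 7 of 28 (25%), beside 2.14% and 1.12%. The same letters with a G before and a C after them were in 0 of 28, beside 0.829% and 0.37%. The sequences below run 5′ to 3′ on the gene's strand, with CACGTG or TCACGTGA in capitals. They hold 100 bases for Lamp1, Ifi30, Atp6v0d1 and Glb1, and 30 bases around the motif for Ctsa, Ctsd, Mcoln1 and Naglu, where the GENCODE vM21 annotation places transcribed 5′ UTR over the motif. They are shown as examples from different classes, from Ifi30, Ctsa, Glb1 and Naglu (log2 fold changes of 1.15, 1.09, 0.96 and 0.82) through Lamp1 and Ctsd (0.40 and 0.30) to Atp6v0d1 and Mcoln1 (0.15 and 0.10). The members with CACGTG that are not shown are Gaa, Lgmn, Ctsl, Atp6v1a and Gla, of which Gaa had the lowest log2 fold change (-0.09).
Ctsa: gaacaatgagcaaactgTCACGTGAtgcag
Ctsd: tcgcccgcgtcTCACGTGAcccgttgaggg
Mcoln1: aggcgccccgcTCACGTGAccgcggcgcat
Lamp1: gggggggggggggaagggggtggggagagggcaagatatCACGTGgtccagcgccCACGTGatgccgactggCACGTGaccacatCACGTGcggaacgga
Ifi30: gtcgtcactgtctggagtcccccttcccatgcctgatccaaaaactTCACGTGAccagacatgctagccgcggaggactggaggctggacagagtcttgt
Atp6v0d1: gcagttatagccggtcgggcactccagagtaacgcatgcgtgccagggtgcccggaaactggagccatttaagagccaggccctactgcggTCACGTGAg
Glb1: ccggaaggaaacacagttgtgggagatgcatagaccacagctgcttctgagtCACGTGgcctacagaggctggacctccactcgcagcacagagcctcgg
Naglu: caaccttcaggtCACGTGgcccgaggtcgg
The windows are, in that order, chr2:164833743-164833772 on the plus strand, chr7:142387908-142387937 on the minus strand, chr8:3500462-3500491 on the plus strand, chr8:13159061-13159160 on the plus strand, chr8:70766807-70766906 on the minus strand, chr8:105566060-105566159 on the minus strand, chr9:114400978-114401077 on the plus strand and chr11:101070009-101070038 on the plus strand. Counted from the annotated RefSeq start, those of Ctsa, Lamp1 and Glb1 end at the base before it, those of Ctsd, Mcoln1, Ifi30 and Naglu end 81, 28, 144 and 56 bases before it, and that of Atp6v0d1 runs 5 bases past it. The Ifi30 stretch lies in an exon of 6330537M06Rik, annotated on the opposite strand. The Ctsa window belongs to the second of its annotated starts. The Lamp1 stretch holds 4 matches. The median log2 fold change was 0.40 in members with CACGTG and 0.44 in those without it, and 0.30 and 0.56 for TCACGTGA. A match describes letters only and is not a measured binding site. The 33 genes were picked as lysosomal, a class known for such E-boxes, so a high share of matches does not bear on tension. A part of TFEB or TFE3 in the differences between the groups was not tested.

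Among the proteases, cathepsin A, the carboxypeptidase that also shields beta-galactosidase and neuraminidase in a complex, was among the genes with the largest differences. Ctsa (mm10 chr2:164832873-164841032, plus strand) was at 938, 485 and 818 CPM at 2 kPa and 1833, 1730.1 and 1190.4 CPM at 50 kPa, here and below in the order of replicates 1, 2 and 3. All 3 high tension libraries were above all 3 low tension ones, replicate 3 by the smallest margin, and the log2 fold change was 1.09 ± 0.30 (± standard error, here and below; 2.12-fold; edgeR adjusted p = 0.0900). Ifi30 (mm10 chr8:70762774-70766663, minus strand) encodes GILT, the thiol reductase that unfolds antigens in the lysosome. It stood at 139, 88.7 and 125 CPM at 2 kPa and 291, 298 and 192 CPM at 50 kPa. The groups did not overlap, with a log2 fold change of 1.15 ± 0.24 (95% interval 0.57 to 1.73; 2.22-fold; edgeR adjusted p = 0.0563). Without high tension replicate 3, the closest to the low tension group, Ifi30 passed edgeR's test (adjusted p = 0.0490; 0.879% of tested genes were higher in that fit), and over all alternatives its adjusted p ran from 0.000490 to 0.236.

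Cathepsins B, L and S, the cysteine proteases of endosomes and lysosomes, had the same order of groups. Ctss, which completes invariant chain degradation in dendritic cells, had 5615, 2772 and 5496 CPM at 2 kPa and 8816, 8901 and 7631 CPM at 50 kPa. Ctsb, which also has peptidyl-dipeptidase activity, had 6402, 2652 and 5855 CPM at 2 kPa and 9754, 10322 and 6996 CPM at 50 kPa. For Ctsl, whose product degrades the invariant chain in the thymus, the levels were 973, 433 and 890.1 CPM at 2 kPa and 1422, 1452 and 1212 CPM at 50 kPa. In each of the 3 genes low tension replicate 2 was below every other library and the groups did not overlap. Log2 fold changes were 0.87 ± 0.32 for Ctss, 0.86 ± 0.39 for Ctsb and 0.83 ± 0.31 for Ctsl, with edgeR adjusted p of 0.15, 0.206 and 0.153.

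Legumain, the asparagine endopeptidase that trims other cathepsins, was wide in spread. Lgmn was at 827, 284 and 512 CPM at 2 kPa and 1121, 1126 and 680.0 CPM at 50 kPa, so low tension replicate 1 lay above high tension replicate 3 and the groups overlapped (log2 fold change 0.85 ± 0.41, edgeR adjusted p = 0.233). Tripeptidyl peptidase 1, lost in a form of neuronal ceroid lipofuscinosis, was steadier. Tpp1 had 276, 197 and 278 CPM at 2 kPa and 383, 389.7 and 334 CPM at 50 kPa, without overlap, and a log2 fold change of 0.56 ± 0.17 (edgeR adjusted p = 0.104). Ctsh, an aminopeptidase, had 280.2, 225 and 294 CPM at 2 kPa and 350.3, 338 and 344 CPM at 50 kPa. Its high tension libraries were close to each other and above all low tension libraries, with a log2 fold change of 0.37 ± 0.13 (edgeR adjusted p = 0.142).

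The other 3 cathepsins had close or overlapping groups. Ctsd, the aspartic protease, was at 4869, 3657 and 5396 CPM at 2 kPa and 5524, 5622 and 6017 CPM at 50 kPa, and high tension replicate 1 was only just above low tension replicate 3. Ctsz, a carboxypeptidase, was at 1323, 1263 and 2005 CPM at 2 kPa and 2086, 1927 and 2206 CPM at 50 kPa, and low tension replicate 3 lay above high tension replicate 2. Ctsc, the dipeptidyl peptidase that activates the serine proteases of neutrophils and other granule cells, was at 669, 481 and 971 CPM at 2 kPa and 632, 650.1 and 766 CPM at 50 kPa. It was highest in low tension replicate 3 and its groups overlapped (log2 fold change -0.05 ± 0.27, 95% interval -0.69 to 0.59). For Ctsd and Ctsz the log2 fold changes were 0.30 ± 0.22 and 0.44 ± 0.22, and edgeR adjusted p was 0.401, 0.251 and, for Ctsc, 0.915. The sign of Ctsc was not stable, with -0.27 to 0.25 when single libraries were left out. Over the 11 proteolysis genes, 8 had high tension libraries all above the low tension ones (17.2% of all tested genes), and the median log2 fold change was 0.83.

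**Figure D3:**
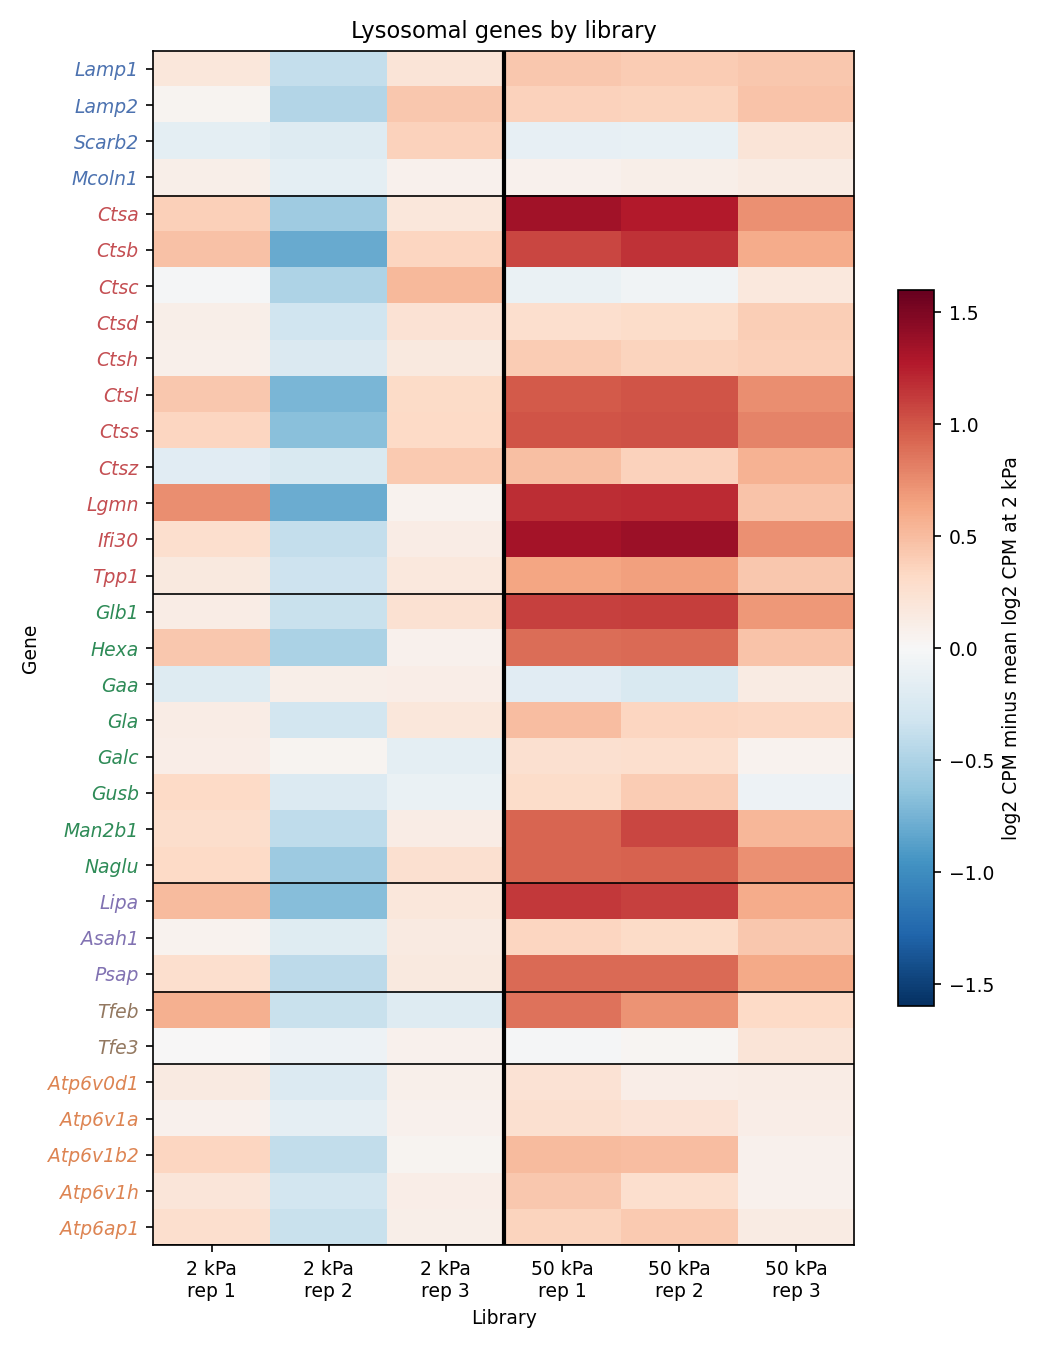
Log2 CPM of each gene (rows, coloured by class) in each library (columns), minus the gene's mean over the 3 low tension libraries; red is higher and blue lower. Low tension replicate 2 is the lowest library for 31 of 33 genes, and high tension replicate 3 is the lowest high tension library for 7 of 11 proteolysis genes and 7 of 8 glycosidases.

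Of the glycosidases, Glb1 had the smallest p. It encodes the beta-galactosidase that removes terminal galactose from GM1 ganglioside and keratan sulfate (mm10 chr9:114401076-114474898, plus strand). Glb1 was at 114, 82.6 and 125 CPM at 2 kPa and 226, 228 and 171 CPM at 50 kPa. High tension libraries were all above the low tension ones (log2 fold change 0.96 ± 0.20, 95% interval 0.49 to 1.43; 1.95-fold; edgeR adjusted p = 0.0548). With total-count scaling Glb1 passed edgeR's test (adjusted p = 0.0473; 0.585% of tested genes were higher in that fit), and its adjusted p ran from 0.000757 to 0.235 over all alternatives.

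Man2b1 and Naglu followed the same pattern. Man2b1, the alpha-mannosidase of N-glycan breakdown, was at 565, 349.9 and 505 CPM at 2 kPa and 884, 974 and 672 CPM at 50 kPa. Naglu, which removes N-acetylglucosamine from heparan sulfate, was at 166, 88.7 and 159 CPM at 2 kPa and 253, 256 and 220.0 CPM at 50 kPa. Neither gene's groups overlapped, and log2 fold changes were 0.83 ± 0.23 and 0.82 ± 0.25 (edgeR adjusted p = 0.0927 and 0.105). Hexa, which encodes an alpha subunit needed to break down GM2 ganglioside, was at 769, 399.9 and 598 CPM at 2 kPa and 1055, 1067 and 778 CPM at 50 kPa. High tension replicate 3 was only just above low tension replicate 1, and the log2 fold change was 0.71 ± 0.27 (edgeR adjusted p = 0.154).

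The other 4 glycosidases were nearer to equal. Gla, the alpha-galactosidase lost in Fabry disease, was at 153, 114 and 159 CPM at 2 kPa and 198, 179 and 177 CPM at 50 kPa, without overlap (log2 fold change 0.38 ± 0.15). Gusb, the beta-glucuronidase, was at 293, 204 and 220.1 CPM at 2 kPa and 288, 313 and 224 CPM at 50 kPa, with high tension replicates 1 and 3 inside the low tension range (log2 fold change 0.20 ± 0.19). Galc, the galactosylceramidase, was at 53.4, 51.3 and 44.8 CPM at 2 kPa and 59.1, 59.9 and 51.5 CPM at 50 kPa, and high tension replicate 3 lay below low tension replicate 1. Gaa, the acid alpha-glucosidase that degrades glycogen in lysosomes, was at 54.0, 66.5 and 66.8 CPM at 2 kPa and 55.0, 52.6 and 68.2 CPM at 50 kPa, and its lowest library was a high tension one. Log2 fold changes were 0.19 ± 0.11 for Galc and -0.09 ± 0.14 for Gaa, and the 95% interval of Gaa, -0.43 to 0.25, is narrower than a 2-fold change either way. EdgeR adjusted p was 0.166, 0.515, 0.293 and 0.688 for the 4 genes.

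Lipid genes were led in abundance by Psap, the precursor of the saposins, small activators that present sphingolipids to their hydrolases. Psap was at 17388, 10792 and 16201 CPM at 2 kPa and 27081, 27080.1 and 22132 CPM at 50 kPa, and it ranked 1 or 2 among all tested genes by CPM (not scaled to length) in every library. It made up 1.85%, 1.25% and 1.50% of all counts at 2 kPa and 2.57%, 2.60% and 2.12% at 50 kPa. Its groups did not overlap (log2 fold change 0.78 ± 0.31; edgeR adjusted p = 0.171). Lipa, the acid lipase that frees cholesterol from its esters, had 369, 162 and 295 CPM at 2 kPa and 569.8, 556 and 393 CPM at 50 kPa, without overlap. Asah1, the acid ceramidase, had 269, 225 and 284 CPM at 2 kPa and 327, 320.4 and 347 CPM at 50 kPa, again without overlap. Their log2 fold changes were 0.88 ± 0.32 and 0.36 ± 0.13 (edgeR adjusted p = 0.145 and 0.138).

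Membrane proteins of the lysosome had a median log2 fold change of 0.23. Their summed level was 1553 to 2484 CPM at 2 kPa and 2608 to 2724 CPM at 50 kPa, without overlap. Lamp1, the abundant glycoprotein of the lysosomal membrane, was at 1357, 919 and 1383 CPM at 2 kPa and 1611, 1593 and 1618 CPM at 50 kPa. The 3 high tension libraries lay close to each other and above all low tension ones (log2 fold change 0.40 ± 0.20; edgeR adjusted p = 0.24). Lamp2, which also carries chaperone-mediated autophagy, was at 671, 473 and 878 CPM at 2 kPa and 846, 839 and 897 CPM at 50 kPa, and low tension replicate 3 was within the high tension range (log2 fold change 0.35 ± 0.23; edgeR adjusted p = 0.357). Scarb2, an abundant lysosomal membrane protein of the CD36 family, was at 115, 112 and 166 CPM at 2 kPa and 118, 118 and 149 CPM at 50 kPa, and its highest library was a low tension one. Mcoln1, the lysosomal calcium channel upstream of TFEB, was at 57.9, 48.8 and 57.0 CPM at 2 kPa and 57.0, 58.3 and 59.7 CPM at 50 kPa, with values of both groups mixed. Log2 fold changes of these last genes were -0.03 ± 0.19 and 0.10 ± 0.09 (edgeR adjusted p = 0.932 and 0.52). Neither direction held under all settings: Mcoln1 was at -0.03 with total-count scaling, and Scarb2 ran from -0.14 to 0.18 with single libraries left out. The 95% intervals of all 4 genes stayed within a 2-fold change either way, as did those of 66.2% of all tested genes.

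Proton pump subunits differed little between the groups. Atp6v1a, the catalytic A subunit of V1, was at 361, 313 and 362 CPM at 2 kPa and 413, 403 and 370.4 CPM at 50 kPa. Only in this 1 of the 5 genes (20%) did the groups not overlap, a share close to the 17.2% of all tested genes. Its log2 fold change was 0.19 ± 0.12, with a 95% interval of -0.09 to 0.48. Atp6v1b2, the B subunit of V1, was at 578, 347 and 471 CPM at 2 kPa and 647, 641 and 476 CPM at 50 kPa, and Atp6v1h, the regulatory H subunit, at 119, 85.0 and 112 CPM at 2 kPa and 141, 126 and 109 CPM at 50 kPa. In both, high tension replicate 3 lay among the low tension libraries. Atp6v0d1, the d subunit that couples the sectors, was at 234, 182 and 223 CPM at 2 kPa and 248, 228 and 229 CPM at 50 kPa. Atp6ap1, an accessory subunit of the assembly, was at 544, 351 and 479 CPM at 2 kPa and 576, 601 and 494 CPM at 50 kPa, again with overlap. The 5 log2 fold changes ran from 0.15 to 0.34, with a median of 0.25 and edgeR adjusted p from 0.317 to 0.481. All 5 intervals at 95% stayed within a 2-fold change either way, which 66.2% of all tested genes did as well.

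As a share of the 33 genes' summed CPM, the pump took 3.93%, 4.56% and 3.62% at 2 kPa and 2.98%, 2.91% and 2.93% at 50 kPa. This share was lower in every high tension library than in every low tension one. The proteolysis genes took 47.8%, 44.8% and 49.7% and then 47.4%, 47.8% and 48.1%, with overlap. The share of Psap was 37.3%, 38.5% and 35.6% and then 39.8%, 39.5% and 38.6%, so it was higher in every high tension library. Since shares of 1 sum depend on each other, these are descriptions of the make-up of the same libraries.

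TFEB, the transcription factor that moves to the nucleus when lysosomes are stressed or mTORC1 is inactive, was measured only at the level of its mRNA. Tfeb was at 37.8, 19.9 and 22.1 CPM at 2 kPa and 46.7, 42.2 and 31.9 CPM at 50 kPa, and low tension replicate 1 lay above high tension replicate 3 (log2 fold change 0.60 ± 0.28; edgeR adjusted p = 0.217). Tfe3, its close relative, was at 90.0, 85.0 and 94.3 CPM at 2 kPa and 88.7, 91.8 and 104 CPM at 50 kPa, with overlap (log2 fold change 0.08 ± 0.10; edgeR adjusted p = 0.617), and the sign of Tfe3 turned with total-count scaling (-0.05). Their location in the cell, through which they are mainly controlled, was not measured.

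Levels of different genes are compared per kb of the principal transcript, which the GENCODE vM21 annotation gives for 32 of the 33 genes. Where several transcripts shared the best principal rank, the longest was used. Lengths were 4743 bp for Ctsb, 1441 bp for Ctsz and 2127 bp for Ctsd, and the order below depends on such lengths. Psap came first, at 5568 ± 1323 CPM per kb at 2 kPa and 9571 ± 1075 at 50 kPa (mean ± SD, n = 3). Ctss followed at 3415 ± 1187 and 6236 ± 524, then Ctsd at 2182 ± 419 and 2689.7 ± 123. Ctsz and Ctsb came next and did not differ beyond their spread at 2 kPa, at 1062 ± 286 and 1048 ± 427. At 50 kPa they were at 1439 ± 97.0 and 1903 ± 375. Tfeb was among the lowest, at 11.6 and 17.5 CPM per kb, as were Galc at 13.0 and 14.8 and Gaa at 17.2 and 16.1.

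Library by library, 31 of 33 genes (93.9%) were lowest in low tension replicate 2, beside 21.3% of all tested genes. Among the high tension libraries replicate 3 was the lowest for 21 of 33 (63.6%), beside 43.3%. Low tension replicate 2 also had the lowest summed macrophage and dendritic cell markers (2771 and 6266 CPM) and the highest summed neutrophil markers (7464 CPM). Divided by the summed macrophage markers, the sum of the 33 genes was 10.7, 10.1 and 9.77 at 2 kPa and 11.7, 11.1 and 9.82 at 50 kPa, which overlap. No other marker list was used as a divisor. The macrophage list was itself mixed, with 11 log2 fold changes above 0 and 4 below, so this ratio does not stand for the number of macrophages. Promyelocyte markers summed to 113 to 748 CPM at 2 kPa and to 24.1 to 86.5 CPM at 50 kPa. None of the 15 macrophage and 13 tested dendritic cell markers passed edgeR's test at an adjusted p under 0.05, and 6 and 5 of them were higher by it at an unadjusted p under 0.05 (13% of all tested genes), while 0 and 4 were lower (14.8%). By DESeq2 4 and 4 were higher (8.52%) and 0 and 4 lower (9.51%). The part that these marker differences have in the lysosomal result was not tested.

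**Figure D4:**
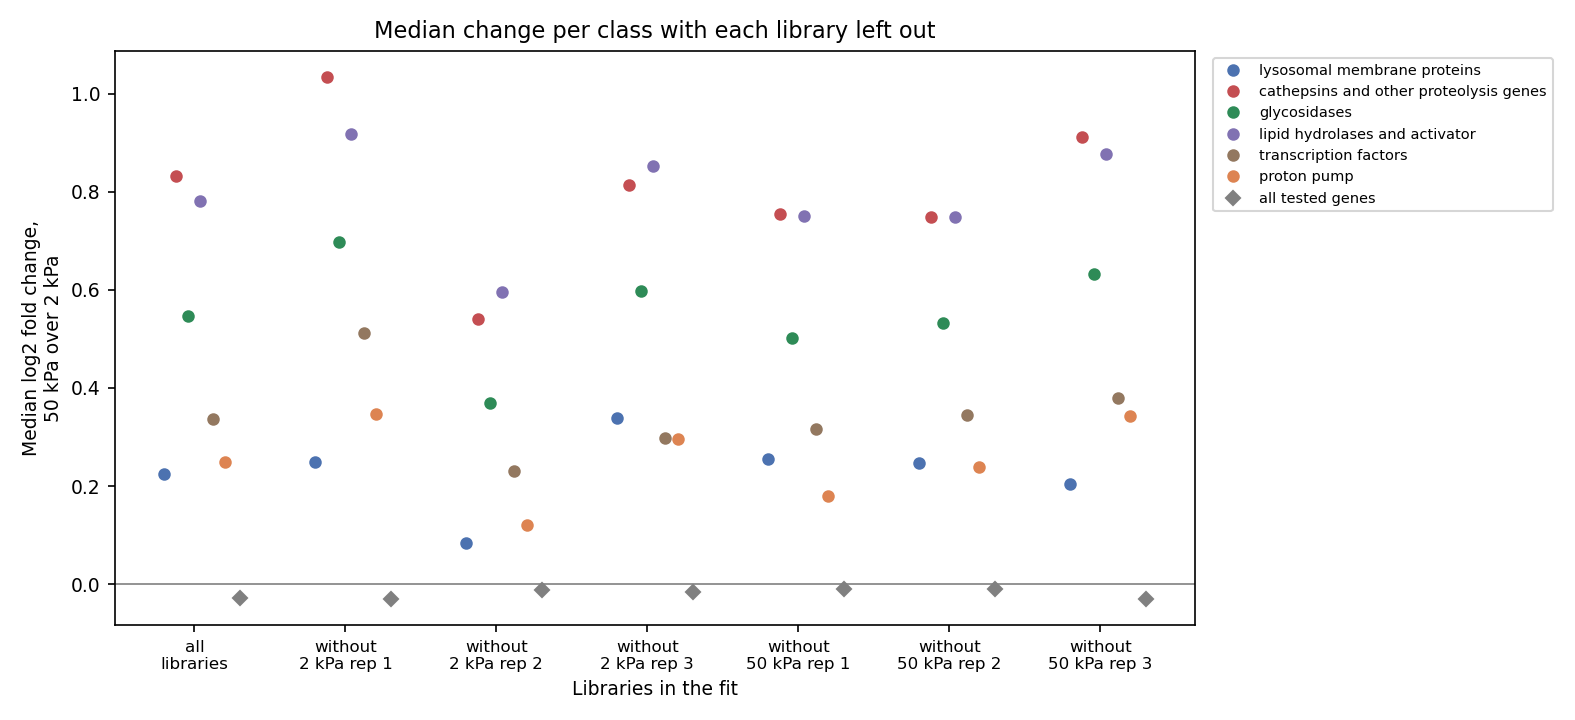
Median log2 fold change of each class (y axis; 50 kPa over 2 kPa) with all libraries and with each library left out (x axis), beside the median of all tested genes (grey diamonds). Without low tension replicate 2 the median over all 33 genes was 0.26 in place of 0.38, and every class median stayed above 0.

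With low tension replicate 2 left out, 10 of the 33 genes were higher at an unadjusted p under 0.05 in place of 14, beside 10.1% of tested genes. The number was 5 with high tension replicates 1 and 2 summed (7.33% of tested genes), without replicate 1 (7.2%) and without replicate 2 (7.06%). With high tension replicate 3 left out it was 9, beside 12.9%, and the median was 0.40. Under every alternative 28 of 33 genes had a log2 fold change above 0, and the median of the 33 stayed between 0.26 and 0.48.

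Other lysosomal genes, 123 by list of which 116 were tested, gave 2 that were higher and 2 that were lower by edgeR's test, shares close to the 1.47% and 1.98% of all tested genes. Aga, the aspartylglucosaminidase that cleaves the link between glycan and asparagine, rose from 36.5, 30.8 and 36.6 CPM at 2 kPa to 59.8, 61.0 and 53.2 CPM at 50 kPa (log2 fold change 0.75 ± 0.11; adjusted p = 0.0353). Smpd1, the acid sphingomyelinase, rose from 17.0, 16.1 and 17.3 CPM at 2 kPa to 26.8, 25.4 and 24.4 CPM at 50 kPa (log2 fold change 0.60 ± 0.09; adjusted p = 0.0360). In neither gene did the groups overlap. Stfa2 and Stfa3, stefins that inhibit cysteine cathepsins, fell, with log2 fold changes of -2.16 ± 0.33 and -2.94 ± 0.54 (edgeR adjusted p = 0.0369 and 0.0481). Stefin A genes are near-identical copies, so how reads with several matches were counted bears on these values, and the neutrophil markers were lower in the same libraries. All 4 calls were lost without low tension replicate 2 or 3, without high tension replicate 1 or 2, with those 2 summed and with a filter of 5 CPM. The highest adjusted p among these was 0.187 for Aga and Stfa2, 0.194 for Smpd1 and 0.213 for Stfa3. Stfa3 was also lost without low tension replicate 1 (0.0525), and Smpd1 without high tension replicate 3 (0.0513) and with total-count scaling (0.0969).

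By list, 19 of 20 other tested glycosidases and sulfatases had a log2 fold change above 0 (all tested genes, 46.8%), with a median of 0.61 beside -0.03. By edgeR 1 was higher (all tested genes, 1.47%), and by DESeq2 11 were (8.52%). Values given with a standard error from here on are log2 fold changes. Galns, the sulfatase of keratan sulfate, was at 1.06 ± 0.21 (edgeR adjusted p = 0.0541) and the macrophage lysozyme Lyz2 at 0.75 ± 0.32. The list of other lipid, nucleic acid and phosphate hydrolases also holds lipid transport and activator genes. Of its 14 tested genes 11 were above 0 (46.8% of all tested genes), with a median of 0.61, 1 higher by edgeR (1.47%) and 6 by DESeq2 (8.52%). Ppt1, which removes palmitate from proteins, was at 1.17 ± 0.26 (edgeR adjusted p = 0.0618). Acp5, the tartrate-resistant phosphatase of osteoclasts and macrophages, was at -0.75 ± 0.51 (edgeR adjusted p = 0.373).

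Other cathepsins and proteolysis genes were above 0 in 6 of 9 (all tested genes, 46.8%), with a median of 0.28, and none passed edgeR's test. By DESeq2 2 of the 9 were higher and 2 lower, 22.2% each (all tested genes, 8.52% and 9.51%). Scpep1, a carboxypeptidase, was at 0.73 ± 0.21, and Ctsk, the collagen-cleaving cathepsin of osteoclasts, at 0.47 ± 0.48. Ctsg, a serine protease of neutrophil granules, was at -2.98 ± 0.91 (edgeR adjusted p = 0.108). Of the 7 cathepsin inhibitors, 2 were above 0 (all tested genes, 46.8%) and the median was -1.11, a list that the stefins lead. By DESeq2 0 of the 7 were higher and 3 (42.9%) lower (all tested genes, 8.52% and 9.51%). Cst3, cystatin C, was at 0.10 ± 0.15, and Cstb, the cystatin of the cytosol, at -0.40 ± 0.16 (edgeR adjusted p = 0.663 and 0.176).

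The further pump list, 16 tested genes, had 9 log2 fold changes above 0 (all tested genes, 46.8%) and a median of 0.06. That is nearer to 0 than the median of 0.25 of the 5 pump genes described above. Atp6v0d2, a d subunit isoform of osteoclasts and macrophages, was at 0.87 ± 0.42 (edgeR adjusted p = 0.229). The a subunit isoforms Tcirg1 and Atp6v0a1 were at -0.38 ± 0.25 and 0.16 ± 0.22. Atp6v0c, the proteolipid of the rotor ring, was at 0.45 ± 0.13 and Atp6v1g2 at -0.51 ± 0.17 (edgeR adjusted p = 0.0991 and 0.125). None of the 16 passed edgeR's test, and 1 (6.25%) was higher by DESeq2, a share no larger than the 8.52% of all tested genes.

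Among 22 other lysosomal membrane and transport proteins 16 were above 0 (all tested genes, 46.8%), with a median of 0.23 and none past edgeR's test. By DESeq2 1 was higher and 1 lower, 4.55% each (all tested genes, 8.52% and 9.51%). Cd68, the macrosialin of macrophage lysosomes, was at 0.98 ± 0.31 and the tetraspanin Cd63 at 0.29 ± 0.23 (edgeR adjusted p = 0.113 and 0.44). Tpcn2, an endolysosomal cation channel, was at -0.45 ± 0.11 (edgeR adjusted p = 0.0706). Of 17 relatives, regulators and targets of TFEB 12 were above 0 (all tested genes, 46.8%), with a median of 0.08 and none past edgeR's or DESeq2's test. Mitf was at 0.18 ± 0.26, Tfec at 0.08 ± 0.09, the folliculin gene Flcn at 0.42 ± 0.16, and Gpnmb, a lysosomal glycoprotein and known target of these factors, at 0.76 ± 0.35. Of the 11 sorting genes, 6 were above 0, a share close to the 46.8% of all tested genes, with a median of 0.20. None of them passed edgeR's or DESeq2's test. Igf2r, the mannose 6-phosphate receptor that delivers hydrolases, was at 0.90 ± 0.33, Sort1 at 0.32 ± 0.13 and Grn, progranulin, at 0.42 ± 0.27 (edgeR adjusted p = 0.146, 0.184 and 0.353).

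Some values carry a limit of annotation. Exons of 8 of the 33 genes overlap a gene on the opposite strand in GENCODE vM21 (Lamp1, Ctsa, Ctsb, Ctsl, Ctsz, Ifi30, Galc and Atp6v1h) and those of 3 a gene on the same strand (Ctsd, Ctsl and Glb1), and whether reads were counted by strand is not stated in the sources used here.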

How the data were processed

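For each library the authors deposited raw counts of reads for each gene symbol, which were used as they are. The submitters' processing notes name TopHat2 2.0.11, HTSeq 0.6.1p2, FastQC 0.11.2 and edgeR (3.16.5 and 3.8.6), and mm10 and hg19 as builds. The annotation and strand setting behind the counts are not stated in the sources used here. Per the labels the kit was a directional NEBNext Ultra II kit.

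Libraries were grouped by the tension in their titles. In R 4.3.3 with edgeR 4.0.16, genes were kept by filterByExpr (minimum count 10, minimum total 15), libraries of 33.8 to 36.3 M counts were scaled by TMM (factors 0.927 to 1.16), and 50 kPa was tested against 2 kPa by glmQLFit and glmQLFTest, 2-sided. Benjamini-Hochberg adjustment ran over the 13155 tested genes, with 0.05 as threshold. The standard error is the size of the log2 fold change divided by the square root of F, and 95% intervals use it. The common biological coefficient of variation was 24.6%.

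Alternatives were RLE, upper-quartile and total-count scaling, no filter, a filter of 5 CPM in 3 libraries, DESeq2 1.42.0, limma 3.58.1 (voom), a robust fit, a replicate block, high tension replicates 1 and 2 summed, and each library left out. In simulated counts for 13010 genes of this comparison, edgeR called 28.6% of 2-fold and 96% of 8-fold changes, and 5 of 129 calls were of unchanged genes. Libraries and genes were simulated as independent, so these rates need not hold for the real libraries.

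The 33 genes, the other lists and the tests were chosen with earlier results of these data known. Named were all 33 and, from the other lysosomal lists, each gene past the threshold, the 2 with the smallest p per list and 16 set by name, some of which are not reported here. Transcript lengths, positions and overlaps come from GENCODE vM21 (GRCm38, the same assembly as mm10) and promoters from RefSeq (GRCm38.p6). Figures were drawn with matplotlib 3.10.9.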

Additional observations from a re-analysis of the deposited data

How the results depend on the processing

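No member passed edgeR's test under most settings. The number higher at an adjusted p under 0.05 was 8 with DESeq2 and 1 with total-count scaling (Glb1, adjusted p = 0.0473), and 0 to 1 with single libraries left out (1 without high tension replicate 3: Ifi30, adjusted p = 0.0490). Over the 33 genes and all settings, 508 of 528 values kept their direction and their side of the threshold, 10 newly passed it and 10 changed sign; the cause was not tested. With total-count scaling, which moved the median of all tested genes to -0.16 and left the members' median 0.42 above it (0.41 with TMM), these were Mcoln1 (-0.031) and Tfe3 (-0.052), and among the other lysosomal genes Cst3 (-0.023) and Tfec (-0.053). With high tension replicates 1 and 2 summed they were Scarb2 (0.042) and Ctsc (0.0059). With single libraries left out Scarb2 ran from -0.14 to 0.18, Ctsc from -0.27 to 0.25 and Mitf from -0.057 to 0.49. With the replicate block, run although same-numbered libraries did not all deviate together (r = 0.54, -0.11 and 0.49; 3 of 6 libraries correlated best with their own number), 0 members passed, Ctsc was at 0.0022 and Ppt1 passed (adjusted p = 0.0495). Over all genes the block gave 254 higher and 522 lower, against 194 and 260 without it. Calls over all genes depend on single libraries: 20 and 16 passed with a filter of 5 CPM, 1 and 0 when low tension replicate 2 was left out, 3 and 0 when low tension replicate 3 was, 118 and 215 when high tension replicate 3 was, and 0 and 0 without high tension replicate 1 or 2 or with both summed, while DESeq2 called 1121 and 1251. Total-count scaling called 77 and 257, a share of higher calls that is lower than with TMM. The members had 736 raw counts or more in each library. In simulated data with 3 independent libraries per group edgeR found 28.6% of 2-fold and 96% of 8-fold changes, and no other group size or depth was simulated. A close pair such as high tension replicates 1 and 2 was not simulated, nor were shifts shared by many genes of a library. These rates therefore need not hold for the real libraries.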

Other observations

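The balance of 2 pairs of genes was computed per kb of transcript. Atp6v0d2 over Atp6v0d1, the d subunits of the pump, stood at 1.37, 0.536 and 0.857 at 2 kPa and at 1.70, 1.68 and 1.32 at 50 kPa, so low tension replicate 1 was above high tension replicate 3. Ctss over Ctsd was at 1.81, 1.19 and 1.60 at 2 kPa and at 2.51, 2.49 and 1.99 at 50 kPa, without overlap. These 2 ratios were chosen with the levels known and were not tested.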
